A study of Mus musculus with 6 samples.

Results

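The genes of cholesterol synthesis, uptake, transport and storage, together with the genes that control the transcription factor SREBP2, were examined in regenerating mouse liver. They were taken from a list of 29 gene names, chosen by pathway role and not by a threshold on the measured values, though with earlier results of these data known. Of the 29, 28 were found among the 16858 genes of the count table, 27 by symbol and Msmo1 by its identifier under the older symbol Sc4mol, and Mvd was not analysed here. RNA-seq had been performed with 3 libraries per genotype, Aqp5-/- and Aqp5+/+, on liver taken 72 h after removal of 70% of the organ (70% PHx). Aqp5-/- mice had been made by CRISPR/Cas9 editing of fertilized eggs and lack the water channel aquaporin 5 in every cell, and the Aqp5+/+ mice were wild-type C57BL/6. The methods of the study give 3-month-old male mice for PHx, and all 6 libraries come from livers after PHx, so regeneration is shared by both groups.

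Cholesterol is built in the cytosol and endoplasmic reticulum from acetyl-CoA, first to isoprenoid units, then to squalene, and from there through lanosterol to cholesterol. SREBP2, made from Srebf2, is held in the endoplasmic reticulum membrane in a complex with the escort protein SCAP and the anchor proteins INSIG1 and INSIG2 while sterols are plentiful. When sterols run low, SCAP carries SREBP2 to the Golgi, where proteases release its active part, which enters the nucleus and switches on most genes of the synthesis pathway at once. The liver is a main site of this pathway, and dividing hepatocytes need sterols for new membranes.

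The 6 libraries held 7130831 to 15550006 counts, and the smallest was Aqp5+/+ replicate 2. Between libraries the correlation of log2 levels over genes lay between 0.826 and 0.961. The hepatocyte markers summed to 127200, 122300 and 130600 CPM (counts scaled to a common library size) in Aqp5-/- replicates 1 to 3, against 123600, 81130 and 141100 CPM in Aqp5+/+ replicates 1 to 3, so the tissue label held in every library, with the lowest sum in Aqp5+/+ replicate 2. Much of each sum was Alb, at 39150 CPM in Aqp5+/+ replicate 2 against 69370 to 78910 CPM in the other libraries. Of the 13 hepatocyte markers tested, 4 were lowest in Aqp5+/+ replicate 2, beside 3598 of all 12353 genes tested. The targeted gene was not analysed here. The 4 Y-linked genes Ddx3y, Eif2s3y, Uty and Kdm5d had 11 counts or fewer each in every Aqp5-/- library, against 20 to 1492 counts in the Aqp5+/+ libraries. Their summed level was 0.89, 0.87 and 1.19 CPM in Aqp5-/- libraries, against 303.8, 470.9 and 287.2 CPM in Aqp5+/+ libraries. The 12 listed genes with male-biased expression in liver summed to 654.9, 1281 and 236.4 CPM in Aqp5-/- libraries, against 9842, 11160 and 9097 CPM in Aqp5+/+ libraries. The 12 female-biased ones summed to 4080, 3904 and 1390 CPM in Aqp5-/- libraries, against 57.7, 75.8 and 58.9 CPM in Aqp5+/+ libraries. Genotype and sex-linked expression therefore cannot be told apart in any comparison below, although male mice are stated. In whole liver, fewer cells of a type and less RNA per cell cannot be told apart either.

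Across the 28 genes, none passed the test between the genotypes. By edgeR's quasi-likelihood test 41 of 12353 genes tested passed at an adjusted p under 0.05 (0.332%), 19 higher (0.154%) and 22 lower (0.178%) in Aqp5-/- livers, and 0 of the 28 cholesterol genes were among them. At an unadjusted p under 0.05, 3 of the 28 were lower (Sc5d, Scap and Soat2, where 4.48% of all tested genes were lower) and 0 were higher (4.3% of all tested genes). DESeq2 called 1 of the 28 lower, Sc5d (0.925% of all genes with an adjusted p were lower), and 0 higher (0.849%), and at an unadjusted p under 0.05 it had 3 lower (4.89%) and 0 higher (5.19%). Limma called 0 lower (0.219%) and 0 higher (0.146%), and at an unadjusted p under 0.05 it had 3 lower (4.42%) and 0 higher (4.08%). The groups did not overlap for 4 of the 28 genes. Sc5d, Scap and Soat2 were lower in all Aqp5-/- libraries (7.8% of all genes tested), and Npc2 was higher in all of them (6.93%). The median log2 fold change of the 28 was -0.04, beside 0.01 over all genes tested.

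**Figure D1:**
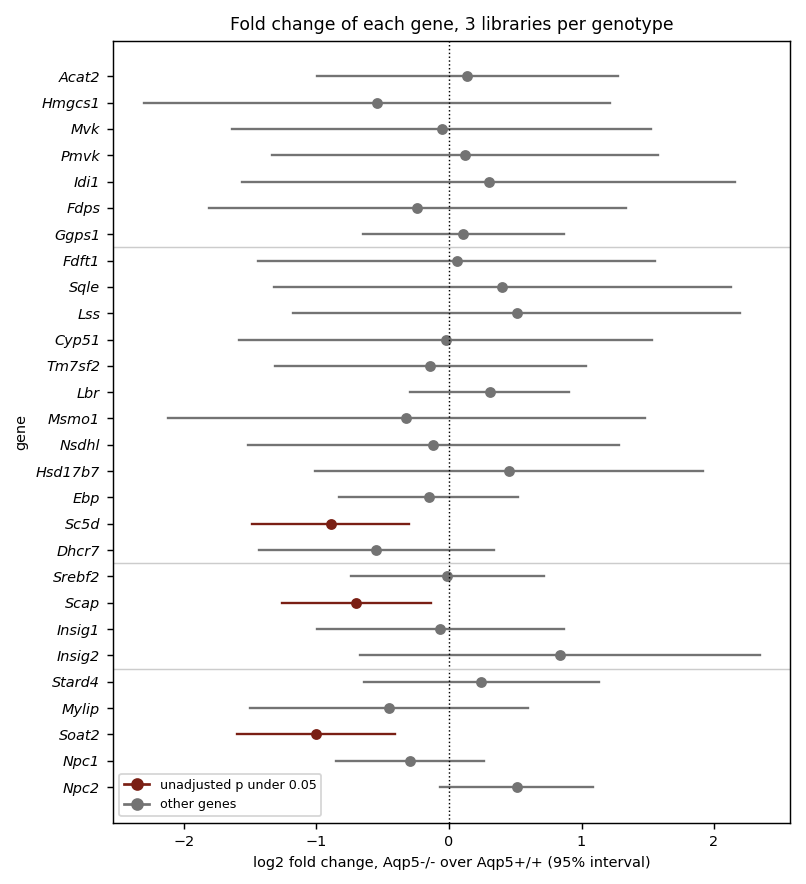
Log2 fold change of each of the 28 genes in Aqp5-/- over Aqp5+/+ livers, with its 95% interval from edgeR (3 libraries per genotype), ordered by role with grey lines between roles. The intervals of Sc5d, Scap and Soat2 lie below 0, and the others include 0, many of the enzyme genes with an interval wider than 2 log2 units.

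The level per kilobase of exon, averaged over the 6 libraries, ranged from 1.13 CPM per kilobase for Ggps1 to 195 CPM per kilobase for Hmgcs1. Sc5d followed at 118.3, Insig1 at 94.5, Ebp at 74.8 and Cyp51 at 56 CPM per kilobase. Among the synthesis enzymes Ggps1, Tm7sf2 and Lbr were the lowest on this scale, at 1.13, 6.37 and 6.49 CPM per kilobase. The order is a description of the levels, which were not tested between genes.

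SREBP2 acts at promoters together with the factors NF-Y and Sp1, so the promoters of the genes were read for the letters these factors are known to bind. RefSeq windows of 250 bases before to 50 bases after the gene start (GRCm38.p6) were matched for 22 of the 28 genes. No window was available for Soat2, Fdps, Fdft1, Sqle, Stard4 and Npc1, so their promoters were not read. The sterol element TCACNCCAC, searched on both strands, was in 1 of the 22 (4.55%), Hmgcs1, beside 1.44% of all 27025 genes with such a window. With 1 more base, an A in front, it was in 0 of the 22. Only exact matches were counted, so a sterol element that differs from these letters in any base was not counted. The NF-Y box CCAAT was in 20 of the 22 (90.9%), beside 41.1% of all genes and 43% of those tested here, and its letters do not overlap the sterol element. The Sp1 box GGGCGG was also in 20 of the 22 (90.9%), beside 38.2% of all genes and 66.8% of those tested. Letters in a window say nothing of whether a factor was bound there.

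The 150 bases before the start are shown for the most abundant gene per length, Hmgcs1, whose window holds the sterol element. They are also shown for Sc5d and Scap, whose groups did not overlap, though edgeR called neither. Capitals mark the sterol element and the NF-Y boxes, read on either strand, so that CCAAT appears as ATTGG on the other. The positions are chr13:119690201-119690350 (plus strand) for Hmgcs1, chr9:42264301-42264450 (minus strand) for Sc5d and chr9:110333138-110333287 (plus strand) for Scap.
Hmgcs1: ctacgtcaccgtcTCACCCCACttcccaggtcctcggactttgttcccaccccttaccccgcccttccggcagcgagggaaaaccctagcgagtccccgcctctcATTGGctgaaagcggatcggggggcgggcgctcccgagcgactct
Sc5d: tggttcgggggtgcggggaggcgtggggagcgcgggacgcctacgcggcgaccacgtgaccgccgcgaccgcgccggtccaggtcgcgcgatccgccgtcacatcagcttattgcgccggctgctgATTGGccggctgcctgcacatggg
Scap: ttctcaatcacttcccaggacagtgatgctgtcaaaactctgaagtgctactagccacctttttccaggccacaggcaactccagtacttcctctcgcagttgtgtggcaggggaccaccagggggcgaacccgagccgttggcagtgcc
The sterol element of Hmgcs1 began 137 bases before the start and its nearest upstream NF-Y box 45 bases before it, and the Sc5d box began 24 bases before the start. No CCAAT stood in either of the RefSeq windows of Scap, which with Acat2 made up the 2 of 22 genes without an NF-Y box. The Sp1 box was absent from the windows of Pmvk and Ggps1.

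For 3 enzyme genes that varied widely among the libraries, Idi1, Cyp51 and Msmo1, 30 bases around the NF-Y box closest to the start are shown, with the box in capitals. They lie at chr13:8885576-8885605 (plus strand), chr5:4104710-4104739 (minus strand) and chr8:64733617-64733646 (minus strand).
Idi1: catggtccaaggtgccATTGGctggcgacc
Cyp51: ccgctgtccgccaCCAATctggtcctgaga
Msmo1: ggagtggggcggaCCAATtacgacaggcga
In these genes the box began 14, 29 and 55 bases before the RefSeq start of the window used. In GENCODE vM21 the genes begin further upstream, at chr13:8885501, chr5:4104746 and chr8:64733792 in that order. All 3 stretches therefore lie inside the genes as annotated there. The Msmo1 stretch also holds the Sp1 box in lower case just before the NF-Y box.

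The early enzymes carry acetyl-CoA to farnesyl and geranylgeranyl diphosphate, and 7 of them were measured. None passed the test by edgeR, and 4 had a positive and 3 a negative log2 fold change. In all 7 the highest library was Aqp5-/- replicate 3. Hmgcs1, the cytosolic HMG-CoA synthase at the entry of the mevalonate pathway (chr13:119690379-119708260), was at 320.8, 159.8 and 1706 CPM in Aqp5-/- replicates 1 to 3, against 1313, 667.8 and 1207 CPM in Aqp5+/+ replicates 1 to 3. Aqp5-/- replicates 1 and 2 thus lay below every Aqp5+/+ library and Aqp5-/- replicate 3 above every one. The mean was 729 ± 850 CPM in Aqp5-/- livers and 1062 ± 346 CPM in Aqp5+/+ livers (SD, n = 3 per genotype), with a log2 fold change of -0.54 (95% interval -2.30 to 1.22, adjusted p = 0.84, edgeR).

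At lower levels than Hmgcs1, Idi1, Fdps, Mvk and Pmvk had the same arrangement of libraries, whereas Acat2 and Ggps1 did not. Idi1, the isomerase that makes the reactive isoprenoid unit, was at 68.8, 52.8 and 472 CPM in Aqp5-/- replicates 1 to 3, against 208.3, 71 and 202.8 CPM in Aqp5+/+ replicates 1 to 3. Fdps, farnesyl diphosphate synthase, was at 58.7, 43.5 and 283.9 CPM in Aqp5-/- libraries, against 171, 75.4 and 208.8 CPM in Aqp5+/+ libraries. For both genes Aqp5-/- replicates 1 and 2 were again under and replicate 3 over all Aqp5+/+ libraries, though Aqp5+/+ replicate 2 was close to Aqp5-/- replicate 1 for Idi1. Mvk, mevalonate kinase, was at 12.9, 7.74 and 57.8 CPM in Aqp5-/- libraries, against 32.8, 13.8 and 34.9 CPM in Aqp5+/+ libraries. Pmvk, the next kinase, was at 9.98, 9.74 and 46.8 CPM in Aqp5-/- libraries, against 26.9, 10.1 and 24 CPM in Aqp5+/+ libraries. Both kinases showed the same order, although for Pmvk Aqp5+/+ replicate 2 was almost level with Aqp5-/- replicates 1 and 2. Acat2, the thiolase that joins acetyl-CoA units, was at 32.2, 23.9 and 81.6 CPM in Aqp5-/- libraries, against 40.8, 23.1 and 61.1 CPM in Aqp5+/+ libraries, so that its lowest library was Aqp5+/+ replicate 2. Ggps1, which makes geranylgeranyl diphosphate for protein prenylation and so leads away from sterols, varied 1.29-fold over all 6 libraries, with a mean of 5.53 ± 0.52 CPM in Aqp5-/- livers and 5.13 ± 0.47 CPM in Aqp5+/+ livers (SD, n = 3 per genotype). Over the 7 genes the summed level was 509.2, 302.3 and 2654 CPM in Aqp5-/- replicates 1 to 3, against 1797, 866.5 and 1744 CPM in Aqp5+/+ replicates 1 to 3.

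**Figure D2:**
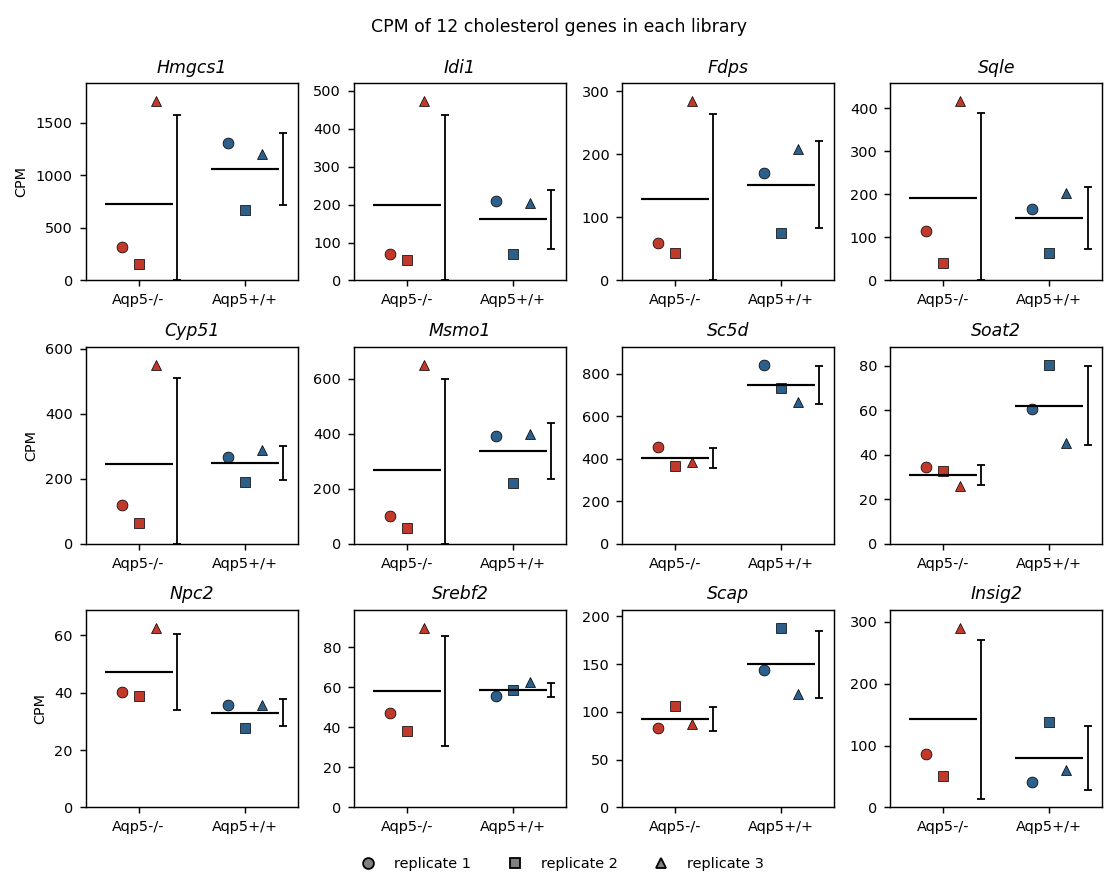
CPM of 12 genes in each library, Aqp5-/- left and Aqp5+/+ right, on axes that start at 0. Points are libraries, with a shape for each replicate number, horizontal lines are group means, and bars are 1 SD, cut at 0. In Hmgcs1, Idi1, Fdps, Sqle, Cyp51 and Msmo1, Aqp5-/- replicate 3 is the highest point and Aqp5-/- replicate 2 the lowest, whereas Sc5d, Soat2 and Scap lie lower in all 3 Aqp5-/- libraries.

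The late enzymes turn farnesyl diphosphate into squalene, lanosterol and cholesterol, and 12 of them were measured. None passed the test by edgeR, and 5 had a positive and 7 a negative log2 fold change. Sqle, squalene epoxidase, a rate-limiting step, was at 115.6, 40.6 and 415.8 CPM in Aqp5-/- replicates 1 to 3, against 166.6, 64 and 202.5 CPM in Aqp5+/+ replicates 1 to 3. Msmo1, the methylsterol oxidase that removes methyl groups after lanosterol, was at 101.9, 56.7 and 650.6 CPM in Aqp5-/- libraries, against 392.6, 221.4 and 397.9 CPM in Aqp5+/+ libraries. Cyp51, the cytochrome P450 that demethylates lanosterol, was at 120.7, 64.2 and 551.4 CPM in Aqp5-/- libraries, against 268.9, 190.1 and 289 CPM in Aqp5+/+ libraries. In Msmo1 and Cyp51 the Aqp5-/- libraries stood on both sides of the whole Aqp5+/+ range, and the ratio of the highest to the lowest library was 11.5 for Msmo1 and 8.58 for Cyp51.

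The 6 late genes Fdft1, Lss, Tm7sf2, Nsdhl, Hsd17b7 and Dhcr7 were also lowest in Aqp5-/- replicate 2, and all but Dhcr7 were highest in Aqp5-/- replicate 3. Fdft1, squalene synthase, was at 73.9, 45 and 285.9 CPM in Aqp5-/- libraries, against 160.1, 63.4 and 165.5 CPM in Aqp5+/+ libraries. Lss, lanosterol synthase, was at 59.6, 53.3 and 372.5 CPM in Aqp5-/- libraries, against 166, 59.6 and 114.8 CPM in Aqp5+/+ libraries. Lss had the highest fold change of the late enzymes, a log2 value of 0.51 with a 95% interval of -1.17 to 2.20. Hsd17b7, a sterol ketone reductase, was at 65.9, 36.6 and 277.4 CPM in Aqp5-/- libraries, against 96.3, 73.6 and 107.4 CPM in Aqp5+/+ libraries. Nsdhl, the X-linked dehydrogenase of the same demethylation step, was at 50.3, 23.7 and 173.6 CPM in Aqp5-/- libraries, against 88.6, 69.4 and 110.6 CPM in Aqp5+/+ libraries. Tm7sf2, a sterol reductase, stayed between 13.9 and 50.1 CPM over the 6 libraries. Dhcr7, the reductase of the last step, was at 72.1, 53.9 and 149.2 CPM in Aqp5-/- libraries, against 165.4, 100 and 136.7 CPM in Aqp5+/+ libraries, and was the only gene of these 6 with Aqp5-/- replicate 3 inside the Aqp5+/+ range.

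Sc5d, Ebp and Lbr differed from this pattern. Sc5d, the desaturase before the last step (chr9:42251595-42264256), was at 458.1, 367.2 and 385 CPM in Aqp5-/- replicates 1 to 3, against 843.2, 732.8 and 667.9 CPM in Aqp5+/+ replicates 1 to 3. All 3 Aqp5-/- libraries were lower, the highest of them at 458.1 CPM against 667.9 CPM in the lowest Aqp5+/+ library. The mean was 403 ± 48.2 CPM in Aqp5-/- livers and 748 ± 88.6 CPM in Aqp5+/+ livers (SD, n = 3 per genotype), and the log2 fold change was -0.89 (standard error 0.26, 95% interval -1.48 to -0.30). By edgeR the unadjusted p was 0.00815 and the adjusted p 0.36, so the gene was not called, whereas DESeq2 called it with an adjusted p of 0.0189. Over all alternatives its log2 fold change lay between -1.00 and -0.74 and its adjusted p between 0.0189 and 0.765. Ebp, the X-linked sterol isomerase, was at 173, 172.1 and 146.1 CPM in Aqp5-/- libraries, against 185.8, 116.2 and 243.8 CPM in Aqp5+/+ libraries. Lbr, a sterol reductase that is also the lamin B receptor of the nuclear envelope, was at 40.7, 22.8 and 39 CPM in Aqp5-/- libraries, against 29.3, 27.8 and 25.7 CPM in Aqp5+/+ libraries. Neither Ebp nor Lbr separated the genotypes, and the highest library was Aqp5+/+ replicate 3 for Ebp and Aqp5-/- replicate 1 for Lbr.

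Counts of some of these genes are uncertain, because their exons overlap those of neighbours in GENCODE vM21 and the use of strand in counting is not given in the sources used here. On the same strand, Fdps shared 26.7% of its exon bases with Gm43738 and Tm7sf2 12.1% with Vps51. On the opposite strand, Fdft1 shared 18.3% with Ctsb, Scap 13.2% with 5830462I19Rik, and Hmgcs1 12.1% with Gm48342.

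Of the genes that sense sterols and control SREBP2, Scap was lower in all Aqp5-/- libraries and the other 3 overlapped. Scap, the escort of SREBP2 (chr9:110333288-110384950), was at 83.1, 106.4 and 87.7 CPM in Aqp5-/- replicates 1 to 3, against 143.8, 187.6 and 118.3 CPM in Aqp5+/+ replicates 1 to 3. The mean was 92.4 ± 12.4 CPM in Aqp5-/- livers and 150 ± 35 CPM in Aqp5+/+ livers (SD, n = 3 per genotype), and the log2 fold change was -0.70 (standard error 0.25, 95% interval -1.26 to -0.14). The unadjusted p was 0.0204 and the adjusted p 0.47 by edgeR, with adjusted p between 0.272 and 0.858 over all alternatives, so Scap was not called in any of them. Srebf2, which encodes SREBP2 itself, was at 47.1, 38.3 and 89.6 CPM in Aqp5-/- libraries, against 55.5, 58.6 and 62.6 CPM in Aqp5+/+ libraries. It was the only gene of the 4 with Aqp5-/- replicates 1 and 2 below and replicate 3 above all Aqp5+/+ libraries, and its log2 fold change was -0.01 (95% interval -0.74 to 0.71).

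Insig1, the retention protein whose gene is itself a target of SREBP2, was at 243, 178.8 and 435.2 CPM in Aqp5-/- replicates 1 to 3, against 261.4, 201.2 and 434.2 CPM in Aqp5+/+ replicates 1 to 3. The ranges of the genotypes almost coincided, and the log2 fold change was -0.07 (95% interval -1.00 to 0.87). Insig2, its liver-enriched relative that is controlled by other signals such as insulin, was at 86.2, 51.4 and 289.5 CPM in Aqp5-/- libraries, against 40.8, 138.3 and 61 CPM in Aqp5+/+ libraries. The highest library was Aqp5-/- replicate 3 and the lowest Aqp5+/+ replicate 1, and Aqp5+/+ replicate 2 stood above Aqp5-/- replicates 1 and 2. The log2 fold change of Insig2 was 0.83 (95% interval -0.67 to 2.34, adjusted p = 0.72, edgeR), and it was -0.22 without Aqp5-/- replicate 3.

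Of the 5 genes of uptake, transport and storage, Soat2 was lower and Npc2 higher in all Aqp5-/- libraries, and the other 3 overlapped. Soat2, the acyltransferase with which hepatocytes esterify cholesterol for storage and lipoproteins (chr15:102150526-102163469), was at 34.4, 32.6 and 25.8 CPM in Aqp5-/- replicates 1 to 3, against 60.4, 80.3 and 45.3 CPM in Aqp5+/+ replicates 1 to 3. Its lowest library was Aqp5-/- replicate 3, the library in which most enzymes were highest. The mean was 30.9 ± 4.52 CPM in Aqp5-/- livers and 62 ± 17.6 CPM in Aqp5+/+ livers (SD, n = 3 per genotype), and the log2 fold change was -1.00 (standard error 0.26, 95% interval -1.60 to -0.40). The unadjusted p was 0.00447 and the adjusted p 0.29 by edgeR. The adjusted p was 0.0743 by DESeq2, which was its lowest over all alternatives, and the log2 fold change was -0.66 without Aqp5-/- replicate 3 and Aqp5+/+ replicate 2.

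Npc1 and Npc2, the membrane and the luminal protein that pass cholesterol out of lysosomes, differed in direction. Npc2 was at 40.2, 38.8 and 62.4 CPM in Aqp5-/- replicates 1 to 3, against 35.8, 27.8 and 35.6 CPM in Aqp5+/+ replicates 1 to 3. Although the groups did not overlap, the lowest Aqp5-/- library was close to the highest Aqp5+/+ library, and the log2 fold change of 0.51 had a 95% interval of -0.07 to 1.09 (adjusted p = 0.59, edgeR). Npc1 was at 233.6, 210.5 and 160.5 CPM in Aqp5-/- libraries, against 222.3, 247.9 and 270.9 CPM in Aqp5+/+ libraries, with a log2 fold change of -0.29 (95% interval -0.85 to 0.26). Stard4, a soluble sterol carrier, was at 74.6, 61.5 and 132.1 CPM in Aqp5-/- libraries, against 79.7, 42.5 and 104.1 CPM in Aqp5+/+ libraries, with the same highest and lowest library as the enzyme Acat2. Mylip, a ubiquitin ligase that marks lipoprotein receptors for degradation, ranged from 6.25 to 21.8 CPM over the 6 libraries and overlapped between genotypes.

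The enzymes spread widely among the Aqp5-/- libraries, and many of them also among the Aqp5+/+ libraries. For Idi1 the SD of the log2 level was 1.72 in Aqp5-/- and 0.88 in Aqp5+/+ libraries, for Cyp51 it was 1.59 in Aqp5-/- and 0.32 in Aqp5+/+ libraries, and for Ebp it was 0.14 in Aqp5-/- and 0.54 in Aqp5+/+ libraries. Aqp5-/- replicate 3 was the highest of the 6 libraries for 20 of the 28 genes (71.4%), beside 25.3% of all genes tested. It was over 2-fold above both other Aqp5-/- libraries for 16 of the 28 (57.1%), beside 6.4% of all genes. Aqp5-/- replicates 1 and 2 were both below Aqp5+/+ replicates 1 and 3 for 22 of the 28 (78.6%), beside 18.2%. The lowest library was Aqp5-/- replicate 2 for 18 of the 28, beside 1244 of all 12353 genes tested. For 11 of the 28 (39.3%) replicate 3 lay above and replicates 1 and 2 below all Aqp5+/+ libraries, beside 1.33% of all genes. These were Hmgcs1, Mvk, Pmvk, Idi1, Fdps, Cyp51, Tm7sf2, Msmo1, Nsdhl, Hsd17b7 and Srebf2. The arrangement was noticed in these values, so the shares are a description and carry no test. The summed level of the 28 genes was 2706, 1983 and 7445 CPM in Aqp5-/- replicates 1 to 3, against 5303, 3608 and 5385 CPM in Aqp5+/+ replicates 1 to 3.

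**Figure D3:**
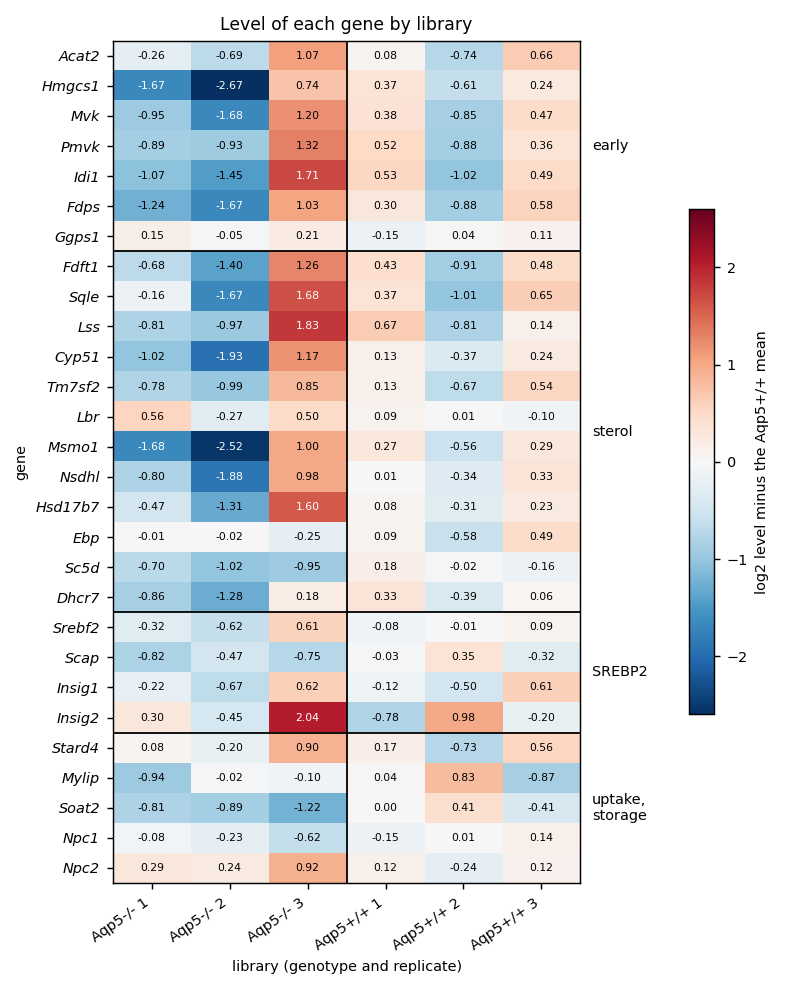
Log2 level of each of the 28 genes in each library minus the mean of the Aqp5+/+ libraries for that gene, with the 3 Aqp5-/- libraries left and the 3 Aqp5+/+ libraries right, in rows grouped by role. Red is above and blue below the Aqp5+/+ mean, with the value in each cell. Most enzyme rows are blue in Aqp5-/- replicates 1 and 2 and red in Aqp5-/- replicate 3, and Aqp5+/+ replicate 2 is blue in the early rows other than Ggps1, with a median of -0.85 over the early rows.

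Marker genes of other cell types also differed between the libraries. In Aqp5-/- replicate 3 the 8 listed cholangiocyte markers summed to 452.5 CPM, of which Spp1 alone was 337.1 CPM. The sum was 53.6 and 80.3 CPM in Aqp5-/- replicates 1 and 2 and 72.8 to 195.1 CPM in Aqp5+/+ libraries. All 7 markers tested were over 2-fold above both other Aqp5-/- libraries in Aqp5-/- replicate 3. Of the 7, 6 were highest of all libraries there, whereas Sox9 was at 15.3 CPM there and 15.6 CPM in Aqp5+/+ replicate 3. The 9 stellate cell markers summed to 3068 CPM in Aqp5-/- replicate 3, against 613.7 and 706.6 CPM in the other Aqp5-/- libraries and 598 to 825.2 CPM in Aqp5+/+ libraries. Of the 9, 4 were over 2-fold above both other Aqp5-/- libraries. Most of the sum in Aqp5-/- replicate 3 came from the collagen genes Col3a1, Col1a1 and Col1a2, at 1407, 573 and 545.8 CPM. Of the 9 markers, 6 were highest in that library, whereas Lrat, Reln and Rgs5 were not. Neutrophil markers summed to 30.1, 38.5 and 127.3 CPM in Aqp5-/- replicates 1 to 3, against 10.1, 5.11 and 26.4 CPM in Aqp5+/+ replicates 1 to 3. Macrophage and Kupffer cell markers summed to 1451, 964.3 and 1644 CPM in Aqp5-/- libraries, against 919.9, 518.1 and 675.3 CPM in Aqp5+/+ libraries. Of the 10 markers tested, 8 were higher in all Aqp5-/- libraries (80%, beside 6.93% of all genes tested). Clec4f and Mpeg1 overlapped between the genotypes, and Clec4f had its lowest level, 97.9 CPM, in Aqp5-/- replicate 3. In Aqp5+/+ replicate 2 the 12 proliferation genes summed to 85.5 CPM, against 303.1 to 495.9 CPM in Aqp5-/- libraries and 426.7 and 360.8 CPM in the other Aqp5+/+ libraries. The part of any of these in the cholesterol genes was not tested.

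The fold changes of the enzymes depended on single libraries. Without Aqp5-/- replicate 3, the median log2 fold change of the 28 genes was -0.87, beside -0.02 over all genes. Then 0 of the 28 were called by edgeR (0.183% of all genes were called lower and 0.175% higher), and 16 were lower and 0 higher at an unadjusted p under 0.05 (3.25% of all genes lower and 2.56% higher). Hmgcs1 had a log2 fold change of -2.15 (adjusted p = 0.18, edgeR) and Msmo1 one of -2.09 (adjusted p = 0.12, edgeR) in that comparison. Aqp5-/- replicate 3 was the highest Aqp5-/- library for 21 of the 28 genes, beside 4782 of all 12353 genes tested. Leaving it out therefore itself lowered the fold changes of those genes. Without Aqp5-/- replicate 1 or 2 the median was 0.12 or 0.26, and without Aqp5+/+ replicate 1, 2 or 3 it was -0.01, -0.24 or 0.15. The sign of the median thus changed with the library left out, in either genotype.

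When Aqp5-/- replicate 3 and Aqp5+/+ replicate 2 were both left out, 9 of the 28 genes were called lower in Aqp5-/- livers, with 0.477% of all genes called lower, and 0 were called higher (0.339%). At an unadjusted p under 0.05, 18 were lower (4.39%) and 0 higher (3.91%). The 9 were all synthesis enzymes. With 2 libraries per genotype, Hmgcs1 was at -2.39 on the log2 scale (adjusted p = 0.00736, edgeR) and Msmo1 at -2.32 (adjusted p = 0.00315, edgeR). Fdps at -1.89, Idi1 at -1.76, Mvk at -1.71, Cyp51 at -1.59, Fdft1 at -1.45, Lss at -1.31 and Dhcr7 at -1.26 were also called, with adjusted p between 0.0033 and 0.039 (edgeR). None of the genes of control or of uptake, transport and storage was called in that comparison, and their difference from the enzymes was not tested. The pair of libraries was chosen with earlier results of these data known. For 18 of the 28 genes (64.3%, beside 20% of all genes) it removed the highest Aqp5-/- and the lowest Aqp5+/+ library, so the choice itself widened the difference for those genes.

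**Figure D4:**
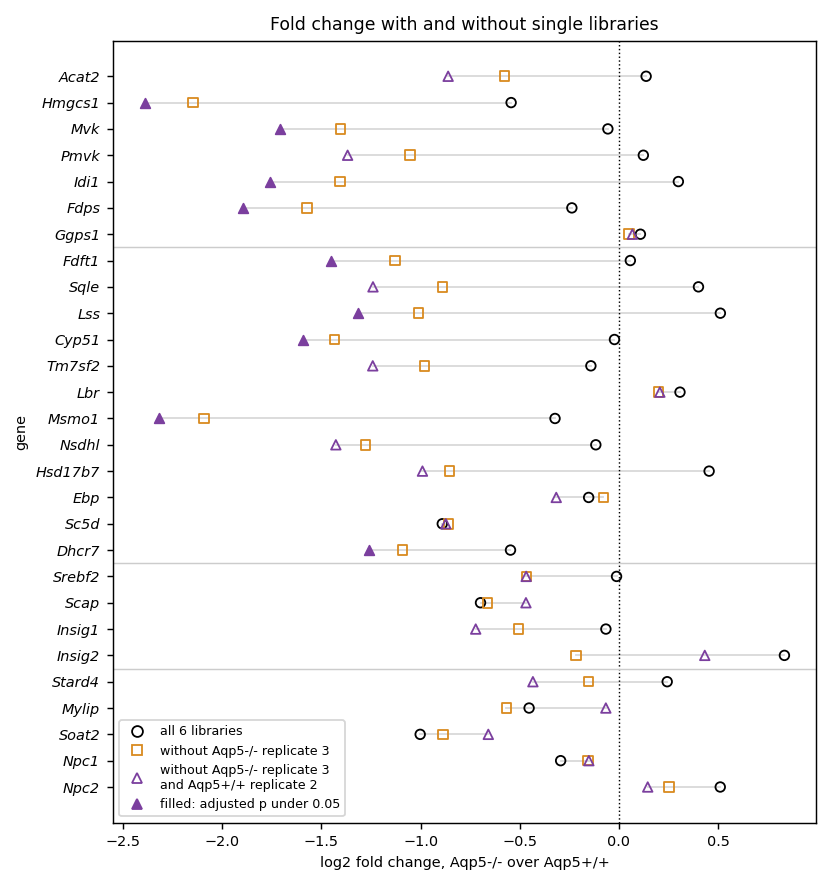
Log2 fold change of each gene, Aqp5-/- over Aqp5+/+, from edgeR with all 6 libraries (circles), without Aqp5-/- replicate 3 (squares), and without Aqp5-/- replicate 3 and Aqp5+/+ replicate 2 (triangles). Filled symbols have an adjusted p under 0.05. Most enzymes move left, 9 of them to filled triangles, while Sc5d, Ggps1, Lbr and Ebp stay near their circles.

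Genes around the pathway were read from 6 lists written with earlier results of these data known, and 0 genes of any of them were called by edgeR (0.332% of all genes) or by limma. DESeq2 called 2, both higher in Aqp5-/- livers, Pnpla3 (adjusted p = 0.0445) and Vldlr (adjusted p = 0.00632), where it called 0.849% of all genes higher and 0.925% lower. In these lists, counts at an unadjusted p under 0.05 stand beside 4.3% of all genes higher and 4.48% lower by edgeR, and groups without overlap beside 6.93% higher and 7.8% lower. Among 19 genes of SREBP processing and sterol sensing, such as the proteases, COPII coat proteins and ubiquitin ligases that act on SCAP, INSIG and SREBP2, 0 had an unadjusted p under 0.05 and the median log2 fold change was 0.04. Mbtps1, the protease that makes the first cut in SREBP2, was at 80.8, 69.2 and 66 CPM in Aqp5-/- libraries, against 94, 101.5 and 84.4 CPM in Aqp5+/+ libraries, lower in each, with a log2 fold change of -0.37 (adjusted p = 0.61, edgeR). Paqr3, a Golgi anchor of the SCAP complex, followed at 0.55 and Sec24c, a COPII coat protein, at -0.29, both with overlapping groups. Among 12 genes of the non-sterol isoprenoid branch, which feeds prenylation, dolichol and ubiquinone, 0 had an unadjusted p under 0.05 and the median was 0.00. The lowest p in that branch belonged to Rabggta at -0.48, Nus1 at 0.42 and Pggt1b at -0.23 on the log2 fold change scale.

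Among 14 other SREBP2-responsive genes the median log2 fold change was -0.21, with 1 higher and 1 lower at an unadjusted p under 0.05. The lower one was Tlcd1, a regulator of membrane lipid composition, at 21.3, 26.7 and 19.9 CPM in Aqp5-/- libraries, against 35.2, 48.8 and 41.3 CPM in Aqp5+/+ libraries (log2 fold change -0.88, adjusted p = 0.29, edgeR). The higher one was Pnpla3, a lipid droplet acyl hydrolase, at 22.7, 22.3 and 9.11 CPM in Aqp5-/- libraries, against 1.425, 8.71 and 1.87 CPM in Aqp5+/+ libraries (2.23, adjusted p = 0.41, edgeR). The groups of both genes did not overlap. Pcyt2, of phosphatidylethanolamine synthesis, was at -0.70 with overlapping groups. Of the 14 genes, 2, Rdh11 and Acss2, had Aqp5-/- replicate 3 above and Aqp5-/- replicates 1 and 2 below all Aqp5+/+ libraries, which was 14.3% of this list beside 39.3% of the 28 cholesterol genes and 1.33% of all genes. Acss2, which makes acetyl-CoA from acetate, was at 102.4, 78.4 and 275.5 CPM in Aqp5-/- libraries, against 214.2, 149.9 and 220.6 CPM in Aqp5+/+ libraries.

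Liver X receptors and their sterol efflux targets act opposite to SREBP2, when sterols are plentiful. Among 10 of these genes 1 was higher at an unadjusted p under 0.05, and the median was -0.12. That gene was Abcg1, a cholesterol exporter, at 24.1, 17 and 31.4 CPM in Aqp5-/- libraries, against 17.2, 14 and 12.1 CPM in Aqp5+/+ libraries, with a log2 fold change of 0.74 (adjusted p = 0.52, edgeR), and Aqp5+/+ replicate 1 overlapped Aqp5-/- replicate 2. Apoe, the apolipoprotein of remnants, at -0.54 and Lpcat3, a phospholipid acyltransferase, at -0.29 followed, with overlapping groups. Among 14 genes of lysosomal and intracellular sterol transport the median was -0.05, and Osbpl1a, an oxysterol binding protein, was at 16.3, 18.6 and 16.2 CPM in Aqp5-/- libraries, against 29.3, 29.9 and 19.3 CPM in Aqp5+/+ libraries (log2 fold change -0.62, adjusted p = 0.54, edgeR). Vps13c, a lipid transfer protein, at -0.50 and Lamp2, a lysosomal membrane protein, at -0.44 were also lower in each Aqp5-/- library without an unadjusted p under 0.05. Of the 14 genes, 3 were thus lower without overlap, and 1, Osbpl2, was higher without overlap at 0.28.

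Among 8 lipoprotein receptors and their partners the median was -0.07, with 2 higher (4.3% of all genes) and 1 lower (4.48%) at an unadjusted p under 0.05. The groups did not overlap for these 3 and for Lrp1, a large receptor for remnants, which was lower at 1957, 2277 and 2026 CPM in Aqp5-/- libraries, against 2380, 2410 and 3079 CPM in Aqp5+/+ libraries (log2 fold change -0.33, adjusted p = 0.75, edgeR). Vldlr, a receptor for triglyceride-rich lipoproteins that normal liver holds little of, was at 8.11, 14 and 3.39 CPM in Aqp5-/- libraries, against 1.68, 1.35 and 1.63 CPM in Aqp5+/+ libraries, which gave a log2 value of 2.43 ± 0.56 (standard error) and an adjusted p of 0.23 by edgeR. Cd36, a fatty acid and lipoprotein scavenger receptor, was at 162.4, 104 and 185 CPM in Aqp5-/- libraries, against 48.3, 23.4 and 91.6 CPM in Aqp5+/+ libraries (1.46, adjusted p = 0.41, edgeR). Sort1, a sorting receptor for lipoprotein particles, was at 20, 26.4 and 23 CPM in Aqp5-/- libraries, against 44.7, 30.9 and 45.3 CPM in Aqp5+/+ libraries (-0.80, adjusted p = 0.37, edgeR). These genes did not have the arrangement of the enzymes, and Aqp5-/- replicate 3 was over 2-fold above both other Aqp5-/- libraries in 0 of them.

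**Figure D5:**
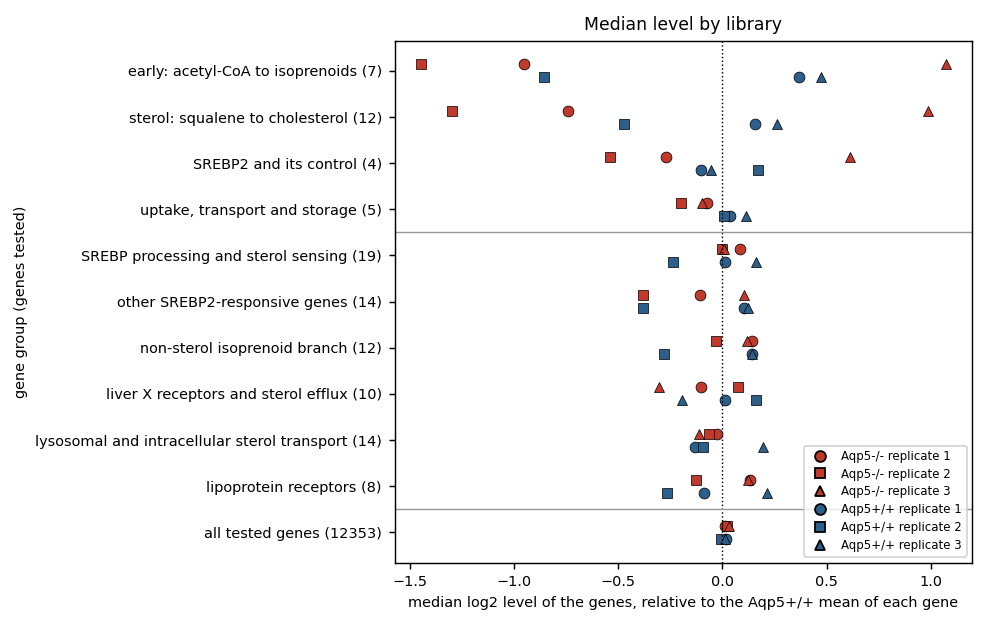
Median log2 level of the genes in each group relative to the Aqp5+/+ mean of each gene, for every library (Aqp5-/- in red above, Aqp5+/+ in blue below, a shape for each replicate number). The 4 roles of the cholesterol genes stand at the top, the 6 surrounding lists below them and all 12353 tested genes at the bottom. In the early enzymes Aqp5-/- replicates 1 to 3 are at -0.95, -1.45 and 1.07, and in the surrounding lists every library lies between -0.38 and 0.22.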

How the data were processed

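Liver RNA of 3 Aqp5-/- and 3 Aqp5+/+ libraries had been sequenced at 72 h after 70% PHx. The authors deposited raw read counts per gene. Per the submitters' processing notes, cutadapt 1.9.3, HISAT2 2.0.4 and the mouse build mm10 had been used, and the methods of the study name HTSeq for counting. The library kit is described differently in the labels and in the methods, and the use of strand is not given in the sources used here. The 6 columns of log2 values normalized by the authors with edgeR were not used.

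Depth was 7130831 to 15550006 counts per library. Genes were kept by filterByExpr (minimum count 10, minimum total 15), which left 12353 of 16858 genes and all 28 members. Counts were scaled by TMM and tested by the 2-sided robust quasi-likelihood test of edgeR 4.0.16 in R 4.3.3, with Benjamini-Hochberg adjustment over all genes tested and a call at an adjusted p under 0.05. Standard errors are the log2 fold change divided by the root of F, and intervals are at 95%. CPM values are TMM-scaled, and log2 levels per library used a prior count of 2. Gene positions and exon lengths came from GENCODE vM21, which held 16666 of the 16858 identifiers, 15828 of them under the same symbol. Promoters came from RefSeq (GRCm38.p6). The fitting code was tested on simulated data.

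The members and gene lists were chosen with earlier results of these data known. Named were every member, and from each surrounding list the genes called and up to 3 with the lowest p. From marker lists summed levels were given, with the Y-linked genes and some hepatocyte, cholangiocyte, stellate and Kupffer cell markers named. Rdh11, Acss2, Lrp1, Osbpl2 and those cell type markers were named after their values were seen. Whether each library is a separate animal is not stated, and the p-values therefore reflect only how these libraries spread, which may be technical. Alternatives were DESeq2 1.42.0, limma 3.58.1 on log2 CPM, scaling by RLE or by library totals alone, dropping the filter or asking for a mean of 1 CPM, a block on the replicate number, each library left out in turn, 2 libraries left out together, and a stricter sterol element. Some items are not reported here.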

Additional observations from a re-analysis of the deposited data

How the results depend on the processing

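The main comparison called 19 genes higher and 22 lower in Aqp5-/- livers, 0 of them among the 28 cholesterol genes. DESeq2 called 113 higher and 123 lower, 1 of the 28 among the lower, and edgeR without a filter on low counts called 11 higher. Leaving out 1 library at a time, the calls ranged from 0 to 22 higher and 3 to 23 lower, with 0 of the 28 called each time, and the median log2 fold change of the 28 from -0.87 (without Aqp5-/- replicate 3) to 0.26 (without Aqp5-/- replicate 2). Without Aqp5-/- replicate 3 and Aqp5+/+ replicate 2, 42 genes were higher and 59 lower, 9 of the 28 among the lower, and the median was -0.93. Idi1 at -1.76, Fdft1 at -1.45 and Lss at -1.31 were then called lower, against 0.30, 0.06 and 0.51 with all libraries. Leaving out 1 library at a time, they ranged from -1.41 to 0.74 (Idi1), -1.13 to 0.46 (Fdft1) and -1.01 to 0.92 (Lss). The cause was not tested.

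With the replicate number as a block, 16 genes were higher and 23 lower, 0 of the 28 were called and their median was -0.28. Deviations of same-numbered libraries correlated at -0.06, 0.23 and 0.15, so the numbers were not taken as pairs. Scaling by library totals alone moved the median of all genes to 0.17 and that of the 28 to 0.14, so 7 of the 28 changed sign. Sc5d, Scap, Soat2, Hmgcs1, Dhcr7 and Npc1 were below 0 and Npc2, Lbr and Ggps1 above 0 under every alternative run. With all libraries the 95% intervals of Hmgcs1, Idi1 and Msmo1 span more than 2-fold lower to more than 2-fold higher.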
